A study of Mus musculus with 6 samples.

Results

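The serpins are a family of proteins of which most inhibit serine proteases. The target protease cuts an exposed loop of the serpin, and the serpin then changes shape and holds the protease in a covalent complex. In lung the best known member is alpha-1 antitrypsin, the plasma inhibitor of neutrophil elastase, which is made mainly in liver. Its deficiency in people predisposes to emphysema, above all in smokers. Mice carry several antitrypsin genes, Serpina1a to Serpina1e, side by side. Other members control clotting, plasminogen activation and complement, protect leukocytes from their own proteases, or have left protease inhibition for other tasks.

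Members were all probe sets for which the platform annotation lists a symbol starting with Serpin. There were 32 among the 12488 probe sets of the array, 28 with 1 symbol and 4 with several, and together they name 28 genes. RNA came from lungs of mice labelled C57, DBA and ICR, the last an outbred stock. Smoked mice breathed the smoke of 3 cigarettes a day on 5 days a week for 4 weeks, and control lungs are labelled normal. The labels give no age, sex or substrain, and do not say whether lungs were pooled. Each strain had 1 control and 1 smoked array, numbered as mouse 1. No group had replicates, so the smoke effect was judged over n = 3 strains, each a pair of arrays, and strains were compared with n = 2 arrays each.

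Among 6 measured markers of lung epithelium, Sftpc read 7184 to 10579 and Scgb1a1 7572 to 10324 over the arrays, while Sftpb read 1113 to 6105, Cyp2f2 1274 to 6203 and Sftpd 4.74 to 24.5. Sftpb and Cyp2f2 were called lower in ICR than in C57 (2 of 5 tested, against 1.37% of all probe sets). The arrays differed in overall brightness, with median intensities of 52.2 to 84.8 on 5 of them and 25.9 on the ICR smoked array, which also had the highest ratio of 3' to 5' beta-actin signal (4.75, against 1.46 to 2.75). The DBA smoked array stood apart in genes of liver, and the DBA control array in genes of neutrophil granules. The C57 arrays stood apart in skeletal muscle genes, which summed to 5950.1 and 4210.5 there and to 117 to 924 on the others. Of 7 tested, 5 were called lower in DBA than in C57, against 0.859% of all probe sets, and 5 in ICR than in C57, against 1.37%. In ICR against DBA 1 was called lower, against 0.657%. Genes of stratified squamous epithelium summed to 989 and 1870 in C57 and to 186 to 694 elsewhere. Of 5 squamous genes tested, 2 were called lower in ICR than in C57 and 0 in DBA than in C57. The part of muscle and squamous tissue in the strain differences was not tested. Their values are given here and not repeated beside each strain difference. In whole tissue, fewer cells of a type and less RNA per cell cannot be told apart. Intensities below are the deposited linear values. Differences are in log2 of the intensity plus 8.05 (the 20th percentile), quantile normalized, a scale that understates changes of dim probe sets. Calls require a Benjamini-Hochberg adjusted p below 0.05 in limma's fit over the 7453 probe sets that passed a filter on low signal. Of the 32 serpin probe sets 15 passed it and 17 did not; the 17 were not tested and are described by intensity only.

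The antitrypsin genes carry the main finding, and they are near-copies. Their start regions are shown here to let a reader see how alike the copies are. The sequences are RefSeq's, build GRCm38.p6 (C57BL/6J), chromosome 12, minus strand, and end before the annotated start. Capitals mark GTTAAT, letters found in sites of the liver-enriched factor HNF1; they were searched on both strands.
Serpina1a, chr12:103863626-103863710: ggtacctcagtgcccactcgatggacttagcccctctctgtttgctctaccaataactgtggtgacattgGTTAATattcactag
Serpina1b, chr12:103738201-103738285: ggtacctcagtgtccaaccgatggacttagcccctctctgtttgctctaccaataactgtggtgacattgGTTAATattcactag
Serpina1c, chr12:103904963-103905047: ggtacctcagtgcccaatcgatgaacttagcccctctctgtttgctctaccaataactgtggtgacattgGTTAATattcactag
Serpina1d, chr12:103773635-103773719: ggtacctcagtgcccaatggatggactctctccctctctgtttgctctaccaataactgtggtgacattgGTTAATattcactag
Serpina1e, chr12:103956961-103957045: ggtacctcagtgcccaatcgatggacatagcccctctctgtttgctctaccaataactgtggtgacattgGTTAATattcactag
Any 2 of these stretches of 85 bases differed at 2 to 7 positions. The 5 genes shared an unbroken run of 59 bases around the capitals, which no promoter window of another gene held. GTTAAT occurred in all 5 antitrypsin windows of 300 bases, in 0 of 21 windows of the other serpin genes on the array, in 12 of 63 windows of all genes named Serpin, on the array or not, and in 7.10% of all 32851 windows. It was thus not limited to the antitrypsins. The 21 windows held none for Serpina6, Serpina10, Serpinb1a and Serping1, and a pair each for Serpinb2 and Serpinb6a. A match of letters describes the window and not the binding of a factor. The sequence of DBA and ICR at these genes was not analysed here.

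The antitrypsins were read by 7 probe sets, with 7 of 7 passing the filter. Their targets overlap: 4 carry single symbols (Serpina1b, Serpina1e and a pair for Serpina1c), and 3 list several of the genes. With genes this alike, signal can be shared between them, so the probe sets are not independent measurements and do not show which gene copy was transcribed.

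The antitrypsins were higher in DBA lung than in C57 lung at all 7 probe sets. Serpina1b (101576_f_at) read 79.6 and 22.6 in C57 control and smoked lung, 428 and 1363 in DBA, and 109.9 and 58.5 in ICR. Both DBA values lay above all 4 others, which 9.59% of the probe sets tested showed after normalization. The fitted difference between DBA and C57 was 12.5-fold (log2 3.65, SE 0.53, limma adjusted p = 0.00997). Serpina1e (101574_f_at) read 84.6 and 22.5 in C57, 374 and 1439 in DBA, and 96.6 and 34.6 in ICR, a difference of 11.9-fold between DBA and C57 (log2 3.57, SE 0.59, limma adjusted p = 0.0180). Its order over the arrays was that of Serpina1b, with DBA smoked highest and C57 smoked lowest.

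Serpina1c had a pair of probe sets of its own. The first (101565_f_at) read 109.9 and 62.4 in C57, 477 and 1272 in DBA, and 135.2 and 80.1 in ICR (log2 2.93 for DBA minus C57, SE 0.38, limma adjusted p = 0.00576). The other (100329_at) read 20.5 and 11.04 in C57, 112 and 427 in DBA, and 46.6 and 14.3 in ICR (log2 2.92, SE 0.51, limma adjusted p = 0.0216). It passed the filter only through its DBA values, so its call is not independent of the filter. For both probe sets of Serpina1c, the DBA values lay above those of C57 and ICR, as for Serpina1b.

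The shared probe sets were also higher in DBA. The one listing Serpina1a to Serpina1d (93109_f_at) read 82.9 and 21.1 in C57, 373 and 1306 in DBA, and 93.2 and 45.7 in ICR (log2 3.53, SE 0.57, limma adjusted p = 0.0157). The one listing Serpina1a, Serpina1c and Serpina1d (101572_f_at) read 38.5 and 16.1 in C57, 162 and 966 in DBA, and 47.5 and 19.1 in ICR (log2 3.30, SE 0.62, limma adjusted p = 0.0322). The one listing all 5 genes (101575_i_at) gave a log2 difference of 2.33, the lowest of the 7. It read 40.2 and 27.5 in C57, 219 and 286 in DBA, and 60.7 and 37.8 in ICR (SE 0.28, limma adjusted p = 0.00511).

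**Figure D1:**
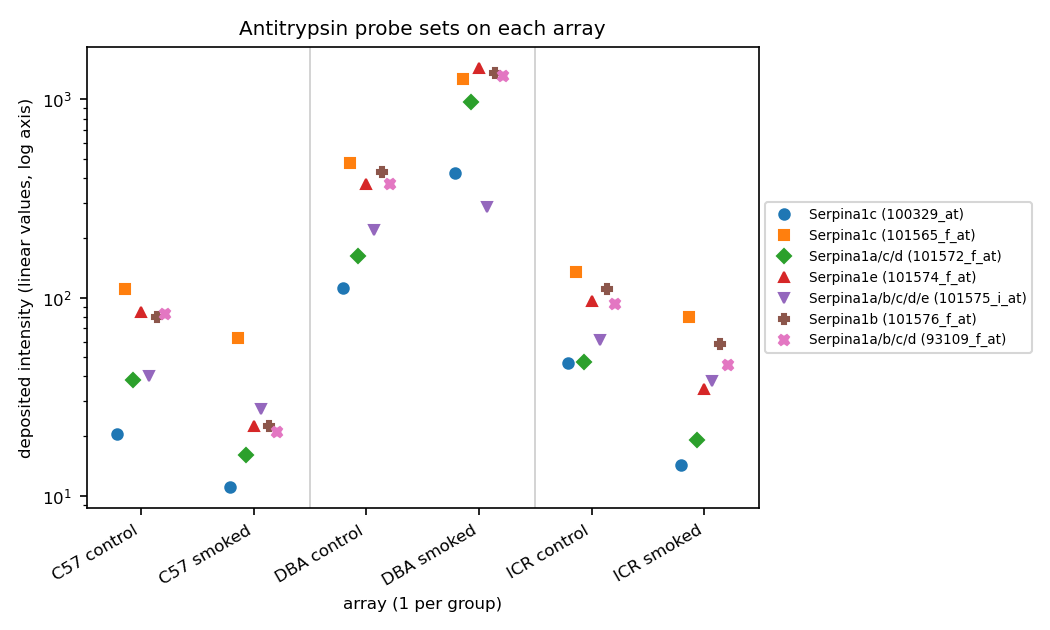
Deposited intensity (log axis) of the 7 antitrypsin probe sets on each of the 6 arrays, 1 point per probe set and array, with no error because each group has 1 array. In DBA the points lie between 112 and 1439, and in C57 and ICR between 11.04 and 135.2.

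Against a background of 0.872% of probe sets called higher in DBA than in C57, 0.859% lower and 1.73% in either direction, 7 of 15 serpin probe sets tested were called higher and 0 lower. All 7 were antitrypsins. The median difference of the antitrypsins was 3.30, beside -0.03 over all probe sets tested. Both DBA arrays exceeded the other 4 after normalization at all 7 antitrypsins, which 9.59% of the probe sets tested did. Of the 7, 6 would have passed the filter on the mean of the C57 and ICR arrays alone. The call depended on the ICR arrays, which add only to the estimate of spread here: without the ICR control array, and likewise without the ICR smoked array, 1 of the 7 was called. With no filter on low signal 2 were called, with a filter at the 60th percentile 4, and with a robust variance prior 3. Each probe set was higher in DBA under every alternative run.

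The DBA smoked array also held high signal of liver genes. Of 16 measured liver genes, most for plasma proteins and some for enzymes, 15 read highest on that array. Their summed intensity was 3996 there and 180.0 to 544 on the 5 other arrays. Alb, albumin, read 98.7 and 13.5 in C57, 20.6 and 1455 in DBA, and 44.3 and 19.6 in ICR. Apoa1, the main protein of high density lipoprotein, read 423 on the DBA smoked array and 2.55 to 30.3 on the others.

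On the DBA control array 1 of the 16 liver genes read highest (Apoa2, 25.5), and all 7 antitrypsins were above both C57 and both ICR arrays. The part of liver RNA in the antitrypsin values of this array was not tested. The liver genes summed to 318 in DBA control lung, against 544 in C57 control and 299.9 in ICR control. In DBA, 7 of the 16 lay below the added constant of 8.05 in control lung and 0 in smoked lung. Among controls, the antitrypsins were above C57 by a median log2 of 1.99 (1.71 to 2.24 over the 7 probe sets) and above ICR by 1.48 (0.79 to 1.61), from 1 array each and with no test. With the DBA smoked array left out, the fitted differences of DBA from C57 were log2 1.83 to 2.62. DBA is then a single array, taken to vary like the other strains. With 1 array per strain and exposure, no fit here measures spread within a group, with or without that array.

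**Figure D2:**
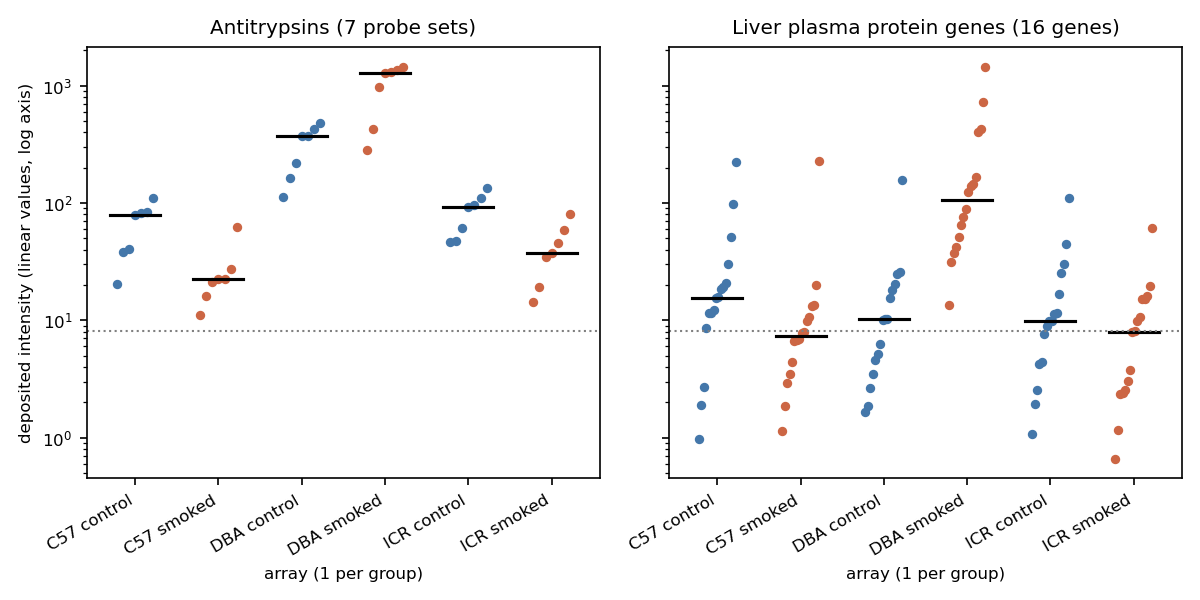
Deposited intensity (log axis) of the 7 antitrypsin probe sets (left) and of 16 liver genes (right) on each array. The right panel is titled plasma protein genes, but some of the 16 encode enzymes. Points are probe sets or genes in rising order, blue for control and orange for smoked. Black bars are medians, and the dotted line is the added constant of 8.05. The antitrypsin median in DBA is 373 for control and 1272 for smoked lung, while the liver gene medians there are 10.2 and 106.5.

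The comparison of ICR with C57 gave no called serpin. Antitrypsin differences were positive at all 7 probe sets, from log2 0.71 to 1.41, with the lowest limma adjusted p at 0.107. Here 0 of 15 serpin probe sets were called, against 2.29% of all probe sets (0.926% higher and 1.37% lower), and 3 had an unadjusted p below 0.05, as did 18.0% of all probe sets. Leaving out the DBA control array, which is in neither group, gave 5 calls, leaving out the DBA smoked one gave 4, and leaving out the C57 control gave 4.

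The antitrypsin differences of ICR minus DBA were log2 -2.63 to -1.31, short of the threshold (limma adjusted p = 0.0535 to 0.127). Again 0 of 15 were called against a background of 1.17% (0.51% higher and 0.657% lower), with 8 at an unadjusted p below 0.05, as had 15.6% of all probe sets. The number called became 7 without the C57 control, 7 without the C57 smoked, 6 without the DBA control and 0 without the DBA smoked array. It was also 7 without scaling between arrays, where the median of all probe sets was -0.89. The 3 comparisons of strains share arrays, so their values are given side by side and not as separate evidence.

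**Figure D3:**
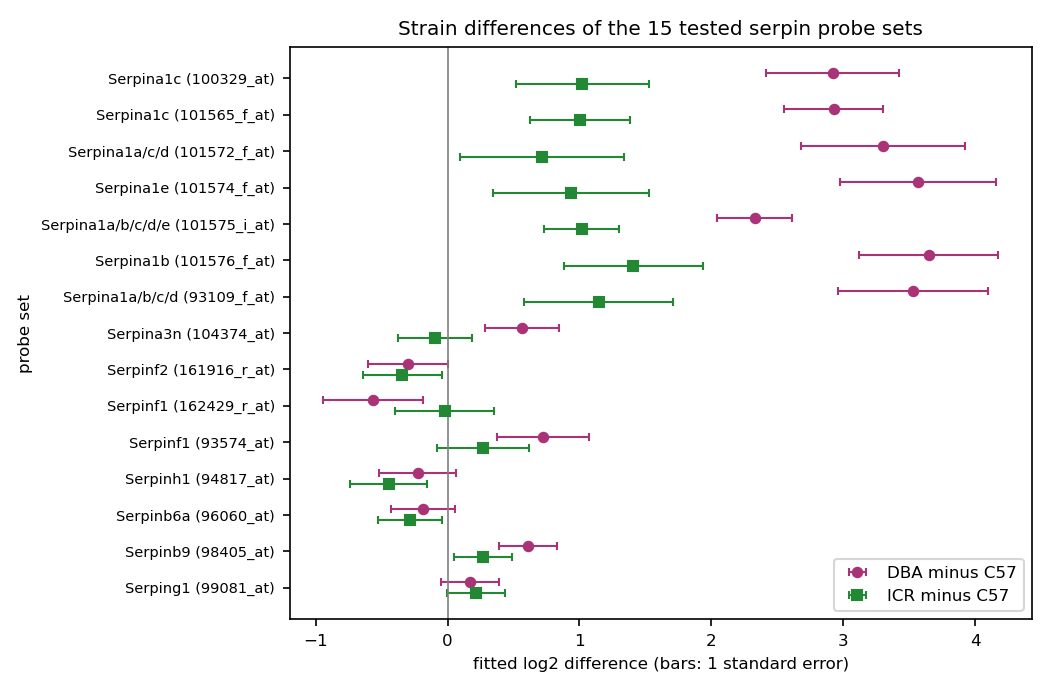
Fitted log2 difference of DBA (circles) and ICR (squares) from C57 for the 15 serpin probe sets tested, with bars of 1 standard error; each strain has 2 arrays. The DBA values of the 7 antitrypsins lie between 2.33 and 3.65 and those of the other 8 probe sets between -0.57 and 0.72.

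No serpin was called for the effect of smoke shared by the 3 strains. In limma's fit 0 of 15 probe sets passed, against 0.0403% of all probe sets, and 0 had an unadjusted p below 0.05, against 1.64% of all probe sets. The differences ran from log2 -0.18 to 0.39. None of the 15 moved in the same direction in all 3 strains, as 17.6% of all probe sets tested did.

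The antitrypsin pairs differed between strains. In C57 all 7 read lower on the smoked array, by a median log2 of -0.87 (-1.54 to -0.40). In DBA all 7 read higher, by 1.54 (0.08 to 2.30), and in ICR 3 were higher and 4 lower, by -0.01 (-0.59 to 0.32). The 16 liver genes summed to 544 in control and 344 in smoked lung of C57, and to 318 and 3996 in DBA. Their part in these differences was not tested.

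The probe set listing all 5 genes departed from the rest in DBA, at log2 0.08, when the other 6 lay between 1.13 and 2.30. The response of DBA, tested as an extra smoke effect in that strain, was called higher than that of the other strains at 4 of 15 serpin probe sets, all antitrypsins, against 0.134% of all probe sets (0.577% lower and 0.711% in either direction). It called 0 with no filter, with no scaling and with the variance prior of the shared fit. For C57 the same test called 0 (background 0.134%, with 0.0939% higher and 0.0403% lower), with 5 at an unadjusted p below 0.05 against 3.01% of all probe sets, and differences of -2.30 to -0.60 at the antitrypsins. For ICR it called 0 (background 0%), with 2 at an unadjusted p below 0.05, against 14.3% of all probe sets. Each response rests on 1 pair, so strain and individual sample cannot be told apart.

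Counted without a test, 7 of 32 serpin probe sets were at least 2-fold higher on the DBA smoked array than on its control (background 1.55%), namely 6 antitrypsins and Serpinc1, and 1 was lower (background 2.64%). In C57 1 was higher (background 1.86%) and 4 were lower (background 1.42%), namely 3 antitrypsins and Serpinb1a. In ICR 2 were higher (background 3.89%) and 2 were lower (background 4.71%), namely Serpinb1a and Serpinb6c. The member higher in C57 was Serpina12, also called vaspin, with 1.62 and 12.7 in C57, 4.29 and 6.34 in DBA, and 2.88 and 4.90 in ICR. In ICR, Serpinb9e read 2.28 in control and 7.37 in smoked lung, with 13.5 and 21.0 in C57 and 19.8 and 23.3 in DBA, so its ICR values were below the added constant. Serpina6 (161326_f_at), which carries corticosteroids in plasma, read 8.12 and 13.0 in ICR, 21.2 and 14.1 in C57, and 17.8 and 23.0 in DBA. Serpinb6c, of the intracellular clade B, was lower in smoked ICR lung at 14.8 and 1.78, and read 15.3 and 11.8 in C57 and 8.73 and 6.36 in DBA. Serpina12, Serpinb9e, Serpina6, Serpinb6c and Serpinb1a did not pass the filter, and median intensity was lowest on the smoked array of ICR (25.9). The counts in ICR changed with the added constant: with 32 in its place 0 were higher and 0 lower.

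**Figure D4:**
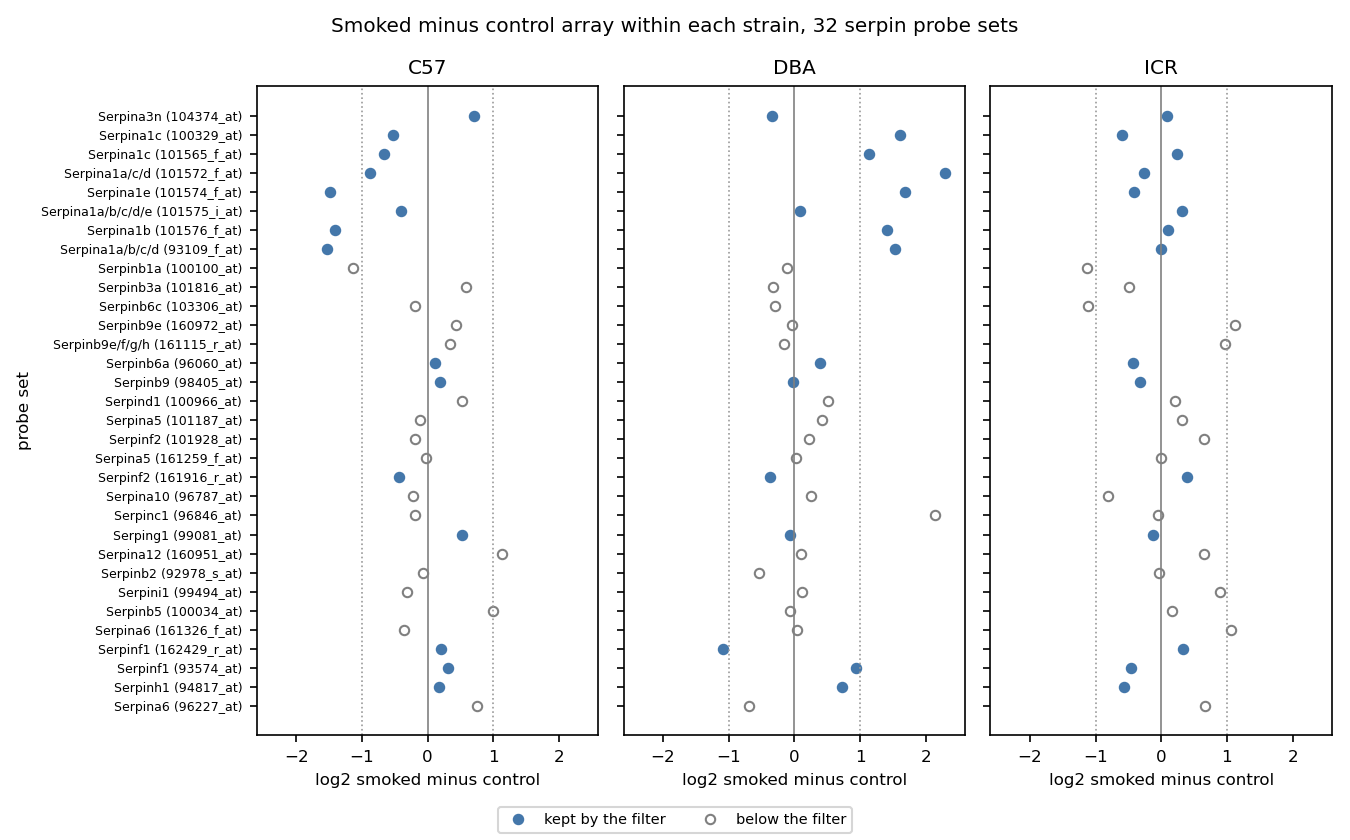
Smoked minus control log2 difference for all 32 serpin probe sets in C57, DBA and ICR, 1 pair of arrays each and no error bars; filled points passed the filter on low signal, open ones did not, and dotted lines mark a 2-fold difference. The antitrypsins lie left of 0 in C57 and right of 0 in DBA.

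Serpina3n, a relative of antichymotrypsin that is induced in inflammation, lies in the same group of serpin genes on chromosome 12. It read 262 and 419 in C57, 537 and 530.4 in DBA, and 239 and 128 in ICR. Its DBA values were the highest after normalization, but by little over C57 smoked, and the difference was not called (log2 0.56 for DBA minus C57). The remaining genes of that cluster on the array did not pass the filter. Serpina10, an inhibitor of factor Xa, read 8.76 to 46.9, and Serpina6 read 9.19 to 59.3 at its other probe set. Serpina5, the protein C inhibitor, read at most 11.1 at both of its probe sets.

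Of the 8 probe sets for plasma serpins of clotting, fibrinolysis and complement, 2 passed the filter. Serping1 encodes C1 inhibitor, which blocks the first proteases of the complement cascade. It read 1179 and 1623 in C57, 1516 and 1731 in DBA, and 1328 and 638 in ICR, and after normalization the arrays lay within log2 9.93 to 10.5. Serpinc1, antithrombin, the main inhibitor of thrombin and itself a liver product, read 2.88 and 1.35 in C57, 3.84 and 62.9 in DBA, and 2.43 and 1.36 in ICR, so that only the DBA smoked array exceeded the added constant. It did not pass the filter and was not tested. On the DBA control array it read 3.84 and the antitrypsins 112 to 477, and the part of liver RNA in these values was not tested.

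Serpind1, heparin cofactor II, read 13.6 to 40.3. The probe sets of Serpinf2, alpha-2 antiplasmin, differed in filter status: one, tested and not called in any comparison, read 36.7 to 119.8, and the other, which did not pass the filter, read 2.37 to 13.8.

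Of 7 probe sets for intracellular serpins of clade B, those of Serpinb6a and Serpinb9 passed the filter. Serpinb6a, an inhibitor of trypsin-like proteases found in many cells, read 1007 and 1032 in C57, 728 and 1169.5 in DBA, and 751 and 292 in ICR. Serpinb9, which inhibits granzyme B and guards cytotoxic lymphocytes and their neighbours, read 609 and 669 in C57, 923 and 1108 in DBA, and 682 and 279.9 in ICR. After normalization both DBA arrays were above the rest for Serpinb9, but the difference from C57 was not called (log2 0.61). Serpinb1a, which inhibits neutrophil elastase inside leukocytes, read 20.7 and 4.57 in C57, 18.6 and 20.1 in DBA, and 20.2 and 3.01 in ICR. Smoked minus control was log2 -1.14 in C57, -0.11 in DBA and -1.13 in ICR. The smoked values of C57 and ICR lay below the added constant. Serpinb1a did not pass the filter and was not tested. The 4 other probe sets of clade B, for Serpinb3a, Serpinb6c and the Serpinb9e group, did not pass the filter either and read 1.78 to 23.3.

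Of 6 probe sets for serpins that do not inhibit proteases, 3 passed the filter. Serpinh1 encodes HSP47, the chaperone of collagen, and read 1060 and 1166 in C57, 672 and 1394 in DBA, and 762 and 268 in ICR. The DBA pair differed by log2 0.73 and the ICR pair by -0.57. Serpinf1 encodes PEDF, an inhibitor of blood vessel growth, and its probe sets differed in direction in DBA. One (93574_at) read 56.8 and 74.1 in C57, 88.4 and 216 in DBA, and 81.4 and 28.8 in ICR. The other (162429_r_at) read 72.6 and 87.1 in C57, 86.5 and 45.2 in DBA, and 58.6 and 37.1 in ICR. No direction is given for the gene. Serpinb5, maspin, an epithelial protein, read 0.57 to 12.1. The remaining members of the tissue group, Serpinb2 and Serpini1, which inhibit plasminogen activators, read 4.69 to 26.9 and 5.24 to 27.3 and were not tested.

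**Figure D5:**
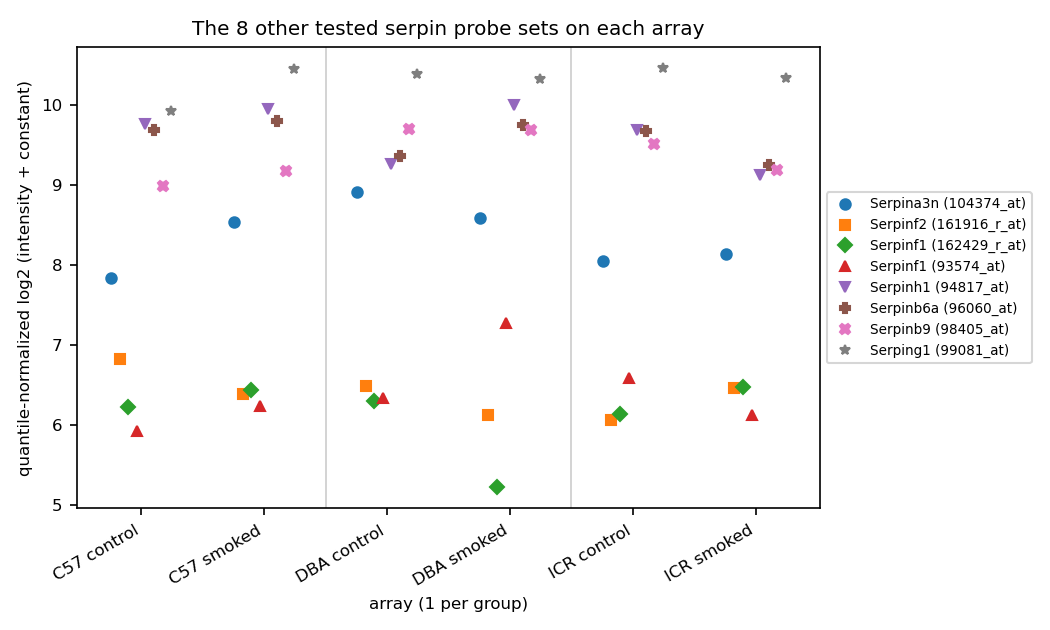
Normalized log2 values of the 8 serpin probe sets outside the antitrypsins that passed the filter, 1 point per array. Serping1, Serpinh1, Serpinb6a and Serpinb9 stay between 8.99 and 10.5 on all arrays, and Serpina3n lies between 7.84 and 8.92.

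Outside the antitrypsins 0 of the 8 probe sets tested were called in any of the 7 comparisons fitted. The share called over all probe sets was 0% to 2.29%, so a count of 0 in 8 does not set these apart. Their differences ran from log2 -0.57 to 0.72 for DBA minus C57, with the lowest limma adjusted p at 0.300, and from -0.45 to 0.27 for ICR minus C57.

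The proteases on which serpins act were listed separately. Of 29 serine proteases measured, 12 passed the filter. In DBA against C57 1 was called higher and 0 lower, against 0.872% and 0.859% of all probe sets. In the other comparisons 0 were called in either direction, against 0% to 2.29% of all probe sets. The one was Plat, tissue plasminogen activator, which starts the dissolution of clots. It read 230.5 and 290.2 in C57, 691 and 736 in DBA, and 256 and 128 in ICR (log2 1.34 for DBA minus C57, SE 0.24, limma adjusted p = 0.0249). The median of the 12 was -0.03, as over all probe sets.

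Elane, neutrophil elastase and the main target of antitrypsin, read 38.5 and 35.1 in C57, 107 and 47.3 in DBA, and 21.1 and 11.05 in ICR. The DBA control array was thus highest. Prtn3, proteinase 3 of the same granules, read 86.5 there and 3.61 to 21.8 on the other arrays. On that array the 12 neutrophil granule genes all read highest, with a summed intensity of 21577 against 1899 to 4837 elsewhere. On the DBA smoked array, where the antitrypsin median was 1272, the neutrophil genes summed to 2070.1. Clotting and fibrinolysis proteases made in liver did not all read highest on the same array. Plg (plasminogen, 176), F2 (prothrombin, 51.9) and F9 (6.88) read highest on the DBA smoked array, and F10 (63.4) and F12 (25.6) on the DBA control array. Proc (52.5) and Klkb1 (9.60) read highest on the C57 control array, and F7 (517) on the C57 smoked array. The DBA smoked array came close for Proc (51.9) and F7 (513), and read 7.52 for Klkb1. Of these proteases only Plg and F7 passed the filter, and F9 lay below the added constant on every array.

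Of 9 receptors and cofactors of serpin complexes, 8 passed the filter. In ICR against C57 1 was called higher and 1 lower, against 0.926% and 1.37% of all probe sets. Procr, the endothelial protein C receptor, was higher (log2 1.33, SE 0.26, limma adjusted p = 0.0355). Sdc4, a heparan sulfate proteoglycan of the cell surface, was lower (log2 -2.72, SE 0.40, limma adjusted p = 0.0118). It read 662 and 492 in C57, 185 and 234 in DBA, and 33.8 and 52.9 in ICR. The summed skeletal muscle genes fell in the same order of strains, and their part was not tested. Lrp1, the receptor that clears serpin and protease complexes, read 288 to 946 and was not called.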

How the data were processed

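Lung RNA was profiled on 6 Affymetrix arrays. Per the labels' protocols, Trizol RNA was copied from an oligo(dT) primer with a T7 promoter into biotin-labelled cRNA. The deposited values are 1 linear intensity per probe set, from 0.0305 to 10579; the way the authors summarised and scaled them has no description in the sources used here. Medians of log2 values differed by up to 1.45 between arrays, above the 0.1 allowed for leaving them unscaled. So log2(value + 8.05) was quantile normalized, the 66 controls were dropped, and the 7453 probe sets whose mean exceeded the 40th percentile were tested. Limma 3.58.1 in R 4.3.3 (lmFit, eBayes with a mean trend) fitted strain and exposure with 2 residual degrees of freedom, or 1 for the response of a strain, 2-sided. Labels do not tell single from pooled mice, so p-values measure only the spread between these samples. With 1 array per group, that spread is the disagreement of the strains in their smoked minus control difference. Limma combines it with a variance prior from all probe sets tested. The fits were also run on simulated data with independent noise and known changes. Those data held no tissue signal of single arrays and no overlapping probe sets. They do not show how the fits behave where such signals occur. Gene symbols come from the platform annotation; 32 of 32 members matched RefSeq. Chromosomes and promoter windows (250 bases before to 50 after the start) are RefSeq's, GRCm38.p6. Alternatives were other added constants, filters, scalings and variance priors, no strain block or exposure term, and arrays or pairs left out. Members and lists were chosen with earlier results of these data known. The number of arrays limits the precision. Members were given by array where they were called, were at least 2-fold different in a pair with the higher value above the constant, had 1 of the 8 highest means or belonged to the antitrypsins, with Serpinb1a, Serping1, Serpinf1, Serpinh1 and Serpinc1; the others are ranges. Of other lists, called genes and the 3 with the highest mean could be named. Elane, Prtn3, Plg, F2, F7, F9, F10, F12, Proc, Klkb1, Sftpb, Sftpd, Apoa1 and Apoa2 were added after their values were seen.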

Additional observations from a re-analysis of the deposited data

Results flagged for a closer look

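At 4 antitrypsin probe sets the DBA pair of arrays differed from the C57 and ICR pairs. Smoked minus control was larger in DBA than in C57 and ICR by log2 2.87 for the probe set listing Serpina1a, Serpina1c and Serpina1d (101572_f_at; limma adjusted p = 0.000417), by 2.65 for Serpina1e (101574_f_at; limma adjusted p = 0.000626), by 2.31 for the one listing Serpina1a to Serpina1d (93109_f_at; limma adjusted p = 0.00819) and by 2.05 for Serpina1b (101576_f_at; limma adjusted p = 0.0327). Of the 16 measured liver genes 3 had passed the filter. In the same test 2 of them, Alb and Mup3, were called larger in DBA, by 6.62 and 6.49, against 0.134% of all probe sets. Mup3 read 732 on the DBA smoked array and 3.51 to 51.3 on the others, and the mean used by the filter included that array. Of 10 neutrophil granule genes tested, 7 were called lower in the DBA response, against 0.577% of all probe sets. The 12 measured genes of that list all read highest on the DBA control array. With 1 residual degree of freedom, the test takes the spread of the DBA pair to be that of the others. A single pair decides the result, and strain and individual sample cannot be told apart. With no filter, no scaling or the variance prior of the shared fit, 0 serpin probe sets were called. The part of liver RNA in the 4 antitrypsin values was not tested.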

How the results depend on the processing

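No paired analysis was possible because each group has 1 array, numbered 1, so the replicate number could form no block; the smoke effect was fitted within strains, and without the strain block it also called 0 serpins. The antitrypsins higher in DBA than in C57 numbered 7, and 2 with no filter, 4 with a filter at the 60th percentile, 3 with a robust prior, and 1 to 7 with an array left out. For ICR minus C57 the count of 0 became 0 to 5 with an array left out. For ICR minus DBA it became 1 with a constant of 32, 1 with the stricter filter, 1 with no exposure term, 7 with no scaling, and 0 to 7 with an array left out. The 4 calls of the DBA response became 2 with a constant of 1, 2 with a common median, and 0 with no filter, no scaling or the variance prior taken over from the smoke effect. In the ICR response the count of 0 became 8 with no scaling, where the median of all probe sets was -0.99. The smoke effect and the C57 response stayed at 0 called serpins under every alternative run. Counts of 2-fold changes in the pairs moved most for dim members. In C57 the 1 higher became 3 with a constant of 1, 0 with a constant of 32, and 4 and 0 at 1.5-fold and 3-fold; the 4 lower became 2 with a constant of 32 and 0 at 3-fold. In DBA the 7 higher became 4 at 3-fold; the 1 lower became 0 with a constant of 32, with no scaling and at 3-fold, and 2 at 1.5-fold. In ICR the 2 higher became 6 with a constant of 1 or a common median, 0 with a constant of 32, with no scaling and at 3-fold, and 7 at 1.5-fold; the 2 lower became 0 with a constant of 32, with a common median and at 3-fold, 11 with no scaling and 4 at 1.5-fold. The cause of these moves was not tested, beyond fewer or more probe sets tested under other filters and fewer residual degrees of freedom with an array left out. No called value changed sign.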
